A study of Mus musculus with 4 samples.

Results

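The interferon response genes are a set of 36 genes whose transcription rises when a cell detects interferon or viral nucleic acid. They were taken from a list of symbols that was chosen with earlier results of these data known. The shares of all genes given beside their counts are therefore a description and not a test. Of the 36, 35 had a feature on the array, out of 21335 genes with a feature. Ifi44 was not analysed here. Where a gene had several features, the brightest by mean level was used. Levels were read in MC3T3-E1, a line of pre-osteoblasts from C57BL/6 mouse calvaria, on an Affymetrix whole-transcript array. The 4 groups were cells given citalopram for 7 days, untreated control cells at 7 days, cells given citalopram for 3 days and untreated control cells at 3 days, with 1 array per group. Citalopram, a selective serotonin reuptake inhibitor, was used at 0.0001 mol per litre (100 µM) in proliferation medium, and the controls had the medium alone. The cells are 1 established line, so the arrays carry no variation between animals, and the labels do not say whether wells were pooled. No group had a replicate, so a difference between 2 arrays has no replicate check, and p-values are given only for effects fitted over the 4 arrays together.

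Type I interferons bind cell-surface receptors that activate the kinases JAK1 and TYK2. These phosphorylate transcription factors, and STAT2 and IRF9 are parts of a complex that binds the interferon-stimulated response element in promoters. The induced proteins detect viral RNA, degrade it, block its translation, trap virus particles at the membrane or feed peptides to MHC class I. Several of them, IRF9 and STAT2 among these, are parts of the signal itself, while USP18 shuts the receptor down. In bone, interferon signalling is best known for restraining osteoclast formation, and osteoblast-lineage cells express the receptors.

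The response element core was searched in RefSeq promoter windows (GRCm38.p6, 250 bases before to 50 after the start), of which 26 of the 36 genes had at least 1. The element core, GAAA followed after 2 bases of any kind by GAAA, on either strand, was found for 12 of these 26 genes (46.2%), against 3.99% of 27025 genes with a window. Overlapping copies were each counted. Usp18, which differed most with citalopram at day 3, had no window. The stretches below show the element before the next 2 genes by that difference (Ifit1 and Gbp2) and before 3 that differed less (Isg15, Bst2 and Stat2), with the matching bases in capitals and 20 bases on either side. A match describes the letters of the window and not a bound site. TTTC-type runs are the same element read on the opposite strand.
Ifit1, chr19:34640765-34640833, plus strand: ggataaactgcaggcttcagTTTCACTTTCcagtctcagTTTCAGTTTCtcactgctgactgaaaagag
Gbp2, chr3:142620584-142620633, plus strand: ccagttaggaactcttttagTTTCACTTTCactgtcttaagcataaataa
Isg15, chr4:156200855-156200916, minus strand: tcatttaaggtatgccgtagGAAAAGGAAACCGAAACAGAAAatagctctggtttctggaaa
Bst2, chr8:71537567-71537622, minus strand: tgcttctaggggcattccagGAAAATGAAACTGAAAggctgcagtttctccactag
Stat2, chr10:128270256-128270305, plus strand: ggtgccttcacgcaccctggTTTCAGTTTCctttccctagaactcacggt
Ifit1 carries 2 copies, Isg15 carries 3 overlapping copies and Bst2 carries 2 overlapping copies, while Gbp2 and Stat2 carry 1 each in these windows. The element stood before genes with large and with small differences in these cells.

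Levels and differences are on the log2 scale of the deposited values. A gene entered a comparison only if, on the brighter of the 2 arrays, it was at or above a floor, the array's 40th percentile over genes. The floor lay between 5.97 and 6.04. The osteoblast-lineage genes Sparc (13.84 to 14.07), Postn (13.07 to 13.42), Col1a1 (11.92 to 12.64) and Sp7 (7.71 to 8.24) were above the floor on each array, whereas Alpl (5.93 to 6.09) lay at it and Ibsp (5.35 to 5.58) lay below it. Immune cells are a strong source of interferon-induced transcripts, so their markers were read too. Of 9 macrophage markers, 5 lay below the floor on every array: Adgre1, Csf1r, Ptprc, Mrc1 and Fcgr1, with values from 5.05 to 5.76. The other 4 were Cd68, Cd14, Lyz2 and Itgam, and the Itgam feature (13.46 to 13.60) is also annotated to the ribosomal gene Rpl35. The mean over the 9 was 7.16 with citalopram and 7.06 in control at day 7, and 7.22 with citalopram and 7.14 in control at day 3. That mean includes the shared Itgam feature and the 5 markers below the floor. The median over the 9 was 5.72 with citalopram and 5.55 in control at day 7, and 5.69 with citalopram and 5.76 in control at day 3. Lyz2 was higher with citalopram by 0.47 at day 7 and 0.57 at day 3, and the part of such cells in the results was not tested. The 6 dendritic cell markers lay below the floor on every array. Of 7 T and natural killer cell markers only Cd8a reached it, on 3 arrays. In such bulk samples, fewer cells of a type and less RNA per cell cannot be told apart.

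The interferon response genes spanned a wide range of levels. Ddx58, which encodes the RNA sensor RIG-I, was the brightest, at 10.98 with citalopram and 11.09 in control at day 7, and at 11.13 with citalopram and 10.98 in control at day 3. Of the 35 genes, 27 were above the floor on 4 of 4 arrays and 8 on none: Irf7, Dhx58, Ddx60, Oas2, Mx1, Mx2, Rsad2 and Gbp3. Several classical strongly induced genes, such as the GTPase genes Mx1 (5.42 to 5.57) and Mx2 (4.73 to 5.12) and the viperin gene Rsad2 (4.97 to 5.13), were thus among the dimmest. The level of one gene against another also depends on its probes, so this order is approximate.

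**Figure D1:**
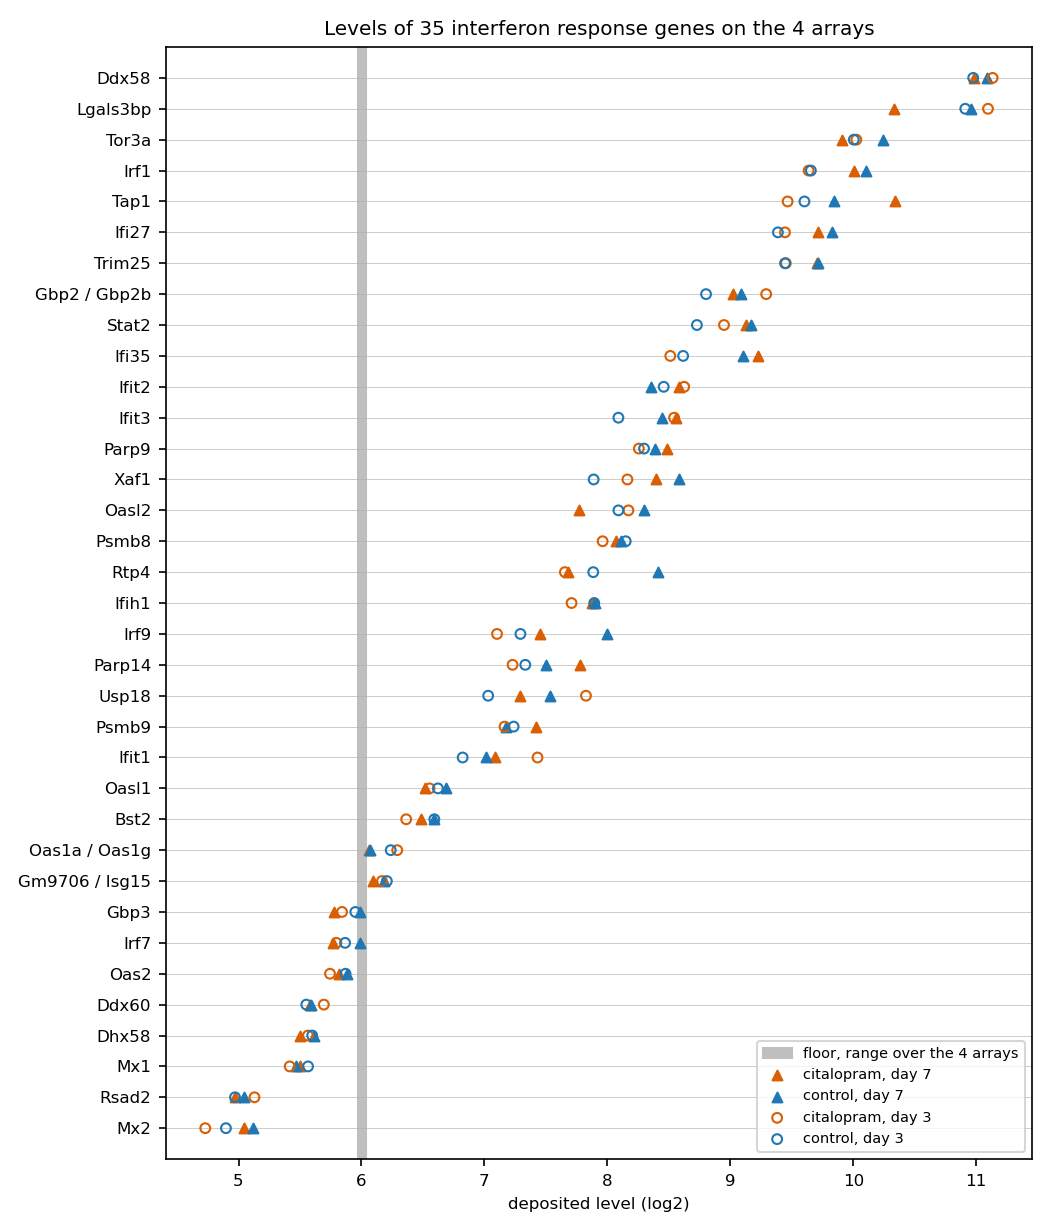
Deposited log2 level (horizontal axis) of each of 35 interferon response genes (rows, by mean level) on the 4 arrays; triangles are day 7, open circles day 3, orange citalopram and blue control, and the grey band is the floor between 5.97 and 6.04. The 8 lowest genes lie below the floor of each array, and 3 rows carry the names of both genes that share the feature.

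The genes did not move as one block with citalopram. At day 7, 8 of the 27 counted genes were higher with citalopram than in control and 19 lower, beside 51.4% of all 12341 counted genes higher. Rtp4 and Lgals3bp were at least 1.5-fold lower, beside 0.916% of all counted genes, and 0 of 27 were at least 1.5-fold higher, beside 0.551%. The 2 lower genes became 4 after quantile normalization, with Irf9 and Oasl2 added, and 3 with array medians equalised, with Irf9 added. Over all counted genes the lower count also rose, from 113 of 12341 to 149 of 12338 and 163 of 12303 under these 2 scalings. At day 3, 14 of the 27 were higher and 13 lower, beside 57.7% of 12361 genes higher. Usp18 and Ifit1 were at least 1.5-fold higher, beside 0.485%, and 0 were that much lower, beside 0.243%. With the floor moved to the 60th percentile neither of these 2 genes was counted. The median over the 27 genes was -0.07 at day 7, against 0.01 for all counted genes, and 0.0064 at day 3, against 0.03 for all counted genes. The day 3 median turned negative under the 3 other scalings (-0.016 to -0.0014).

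A limma fit with additive terms for treatment and day called 0 of 27 genes for citalopram over the 4 arrays, with 0 of 12586 genes called over the whole table (0.0% higher, 0.0% lower). The smallest adjusted p among the 27 was 0.389, for Rtp4. At an unadjusted p under 0.05 there were 2 higher genes, Ifit1 and Ifit3, and 2 lower, Rtp4 and Irf9, beside 5.45% and 3.6% of all tested genes. This fit has 1 residual degree of freedom, beside 7.4 prior degrees of freedom that limma draws from all genes. Its p-values set the mean effect of the 2 pairs of arrays against a spread drawn mostly from all genes. They do not measure a spread between replicates. Differences in opposite directions at the 2 days cancel in that mean, so such a gene is hard to call. Limma's moderated SD, which draws each gene toward the spread of all genes, had a median of 0.107 per array. That gives 0.151 for a difference between 2 arrays. The 1 residual degree of freedom is the change of the citalopram difference between days, so this SD is only a rough guide.

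**Figure D2:**
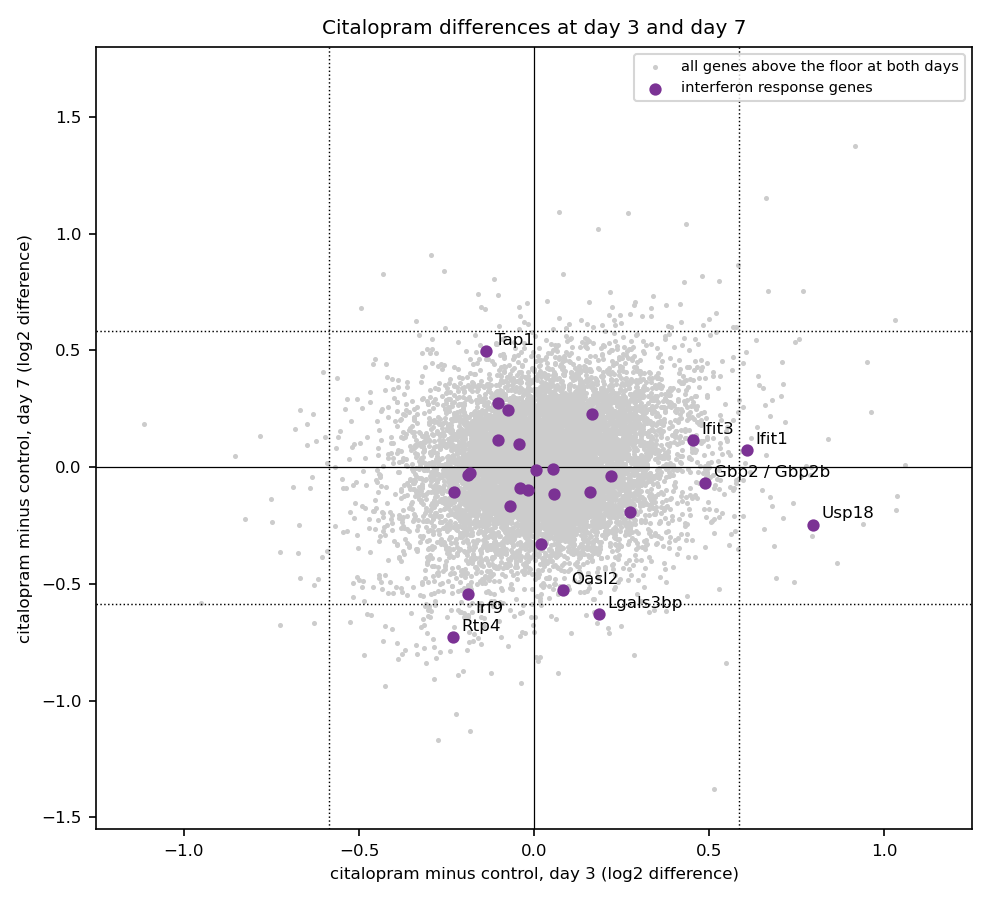
Log2 difference of citalopram minus control at day 3 (horizontal axis) and at day 7 (vertical axis) for 27 interferon response genes (purple points, 1 gene each) and 12119 genes above the floor at both days (grey); dotted lines mark 1.5-fold. Usp18 and Ifit1 lie past 1.5-fold at day 3, Rtp4 and Lgals3bp lie past it at day 7, and no interferon response gene lies past it at both days.

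Across the days, 11 of the 27 genes were higher with citalopram at day 3 and lower at day 7, beside 26.7% of all genes counted at both days. A further 5 had the opposite course, 8 were lower at both days and 3 were higher at both days. The 3 were the IFIT genes. No share of all genes was computed for these other courses, so their counts have no background beside them. Many of the differences behind these signs were smaller than the moderated SD of a difference (0.151), so such signs are not secure. Examples are Trim25 (-0.011 at day 7, 0.0064 at day 3) and the Oas1a feature (-0.0079 at day 7, 0.053 at day 3). Under the scalings, 2 of the 27 genes changed sign in the day 7 difference (Ifit1 and Oas1a) and 2 in the day 3 difference (Trim25 and Tor3a), each from a value no farther from 0 than 0.07.

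The IFIT proteins bind viral RNA that lacks the host cap marks and block its translation. Ifit1 had a level of 7.09 with citalopram and 7.02 in control at day 7, and 7.43 with citalopram and 6.82 in control at day 3. The day 3 citalopram array stood apart from the other 3, with a difference of 0.61 from its control (1.52-fold). Ifit3 had 8.56 with citalopram and 8.44 in control at day 7, and 8.54 with citalopram and 8.09 in control at day 3. Here the day 3 control was the low array, and the difference was 0.45 at day 3 and 0.12 at day 7. Ifit2 had 8.58 with citalopram and 8.35 in control at day 7, and 8.62 with citalopram and 8.46 in control at day 3. Its differences, 0.23 and 0.17, were the closest of the 3 between days. All 3 IFIT genes were higher with citalopram at both days on the deposited values, although Ifit1 at day 7 was -0.00095 after quantile normalization. Limma's estimate over both days was 0.34 for Ifit1 (SE 0.14), 0.28 for Ifit3 (SE 0.12) and 0.20 for Ifit2 (SE 0.10), and none passed the adjusted threshold (adjusted p 0.518 to 0.653). Ifit2 and Ifit3 are adjacent on chromosome 19, with 3 protein-coding genes between Ifit3 and Ifit1 in the RefSeq gene table.

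ISG15 is a ubiquitin-like protein that is joined to other proteins during the response, USP18 removes it, and TRIM25 is a ubiquitin ligase that activates RIG-I. Usp18 had 7.29 with citalopram and 7.53 in control at day 7, and 7.83 with citalopram and 7.03 in control at day 3. It was 1.74-fold higher with citalopram at day 3 (0.80), the largest difference of the 27 genes in that comparison, and lower by 0.25 at day 7. Between days it was lower at day 7 by 0.54 with citalopram and higher by 0.50 in control. The shared feature of Isg15 and Gm9706 lay just above the floor, with 6.09 with citalopram and 6.18 in control at day 7, and 6.17 with citalopram and 6.21 in control at day 3. It spanned 0.11 over the 4 arrays while Usp18 spanned 0.80. Trim25 had 9.70 with citalopram and 9.71 in control at day 7, and 9.45 with citalopram and 9.45 in control at day 3. The citalopram and control arrays of a day lay within 0.02 of each other for Trim25, whereas the days lay 0.25 and 0.27 apart with citalopram and in control.

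Among the transcription factors of the pathway, Irf9 encodes the DNA-binding subunit of the complex with STAT2. Irf9 had 7.46 with citalopram and 8.0 in control at day 7, and 7.10 with citalopram and 7.29 in control at day 3. The day 7 control was the highest array, and citalopram was lower by 0.54 at day 7 and by 0.19 at day 3. Limma's citalopram estimate for Irf9 was -0.37 (SE 0.12, adjusted p 0.412). Stat2 had 9.13 with citalopram and 9.17 in control at day 7, and 8.95 with citalopram and 8.73 in control at day 3. Irf1, which encodes a factor induced mainly by interferon gamma, had 10.01 with citalopram and 10.10 in control at day 7, and 9.64 with citalopram and 9.66 in control at day 3. Both day 7 arrays lay above both day 3 arrays for each of these 3 factors. A second, dim feature of Irf1 stayed between 6.02 and 6.11. Irf7, which amplifies the production of type I interferon, lay below the floor (5.77 to 5.98).

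The oligoadenylate synthetase family detects double-stranded RNA, and its active members make the messenger that switches on RNase L. Oasl2 had 7.77 with citalopram and 8.30 in control at day 7, and 8.17 with citalopram and 8.09 in control at day 3. It was lower with citalopram at day 7 by 0.53 (1.44-fold), and the day 7 citalopram array was the lowest of the 4. Oasl1, adjacent to Oasl2 on chromosome 5, ranged from 6.52 to 6.69, with a difference of -0.17 at day 7 and -0.07 at day 3. The feature shared by Oas1a and Oas1g ranged from 6.06 to 6.29, with a difference of -0.01 at day 7 (0.01 after cyclic loess) and 0.05 at day 3. Oas2 lay below the floor (5.74 to 5.88).

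Of the 4 cytosolic sensor genes, 2 were above the floor. Ddx58 was lower with citalopram by 0.11 at day 7 and higher by 0.16 at day 3. Ifih1, which encodes the sensor MDA5, had 7.88 with citalopram and 7.90 in control at day 7, and 7.71 with citalopram and 7.89 in control at day 3. Dhx58, the gene of the related helicase LGP2, and Ddx60 lay below the floor (5.50 to 5.69).

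Of the membrane and GTPase effectors, only the feature shared by Gbp2 and Gbp2b and that of Bst2 were above the floor. Guanylate-binding proteins coat vacuoles of intracellular pathogens. The Gbp2 and Gbp2b feature had 9.02 with citalopram and 9.09 in control at day 7, and 9.29 with citalopram and 8.80 in control at day 3. Citalopram was higher by 0.49 at day 3 (1.40-fold) and lower by 0.07 at day 7, with the day 3 citalopram array the highest. Gbp3, separated from Gbp2 by 1 protein-coding gene on chromosome 3, lay below the floor (5.78 to 5.98). Bst2, the tetherin gene, whose protein holds budding virions on the membrane, had 6.49 with citalopram and 6.59 in control at day 7, and 6.36 with citalopram and 6.59 in control at day 3.

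The antigen processing genes held the gene that was highest above control at day 7 among the 27. Tap1 encodes a subunit of the peptide pump that loads MHC class I, and it had 10.34 with citalopram and 9.84 in control at day 7, and 9.47 with citalopram and 9.60 in control at day 3. The day 7 citalopram array stood 0.50 above its control (1.41-fold), and at day 3 citalopram was lower by 0.14. Psmb9, an immunoproteasome subunit gene adjacent to Tap1 on chromosome 17, had 7.42 with citalopram and 7.18 in control at day 7, and 7.16 with citalopram and 7.24 in control at day 3. Psmb8, adjacent to Tap1 on the other side, had 8.07 with citalopram and 8.11 in control at day 7, and 7.96 with citalopram and 8.15 in control at day 3. Tap1 and Psmb9 thus shared the signs of both citalopram differences, and Psmb8 was lower at both days.

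The ADP-ribosyltransferase genes Parp9 and Parp14 had the same course as Tap1 on a smaller scale. Parp14 had 7.78 with citalopram and 7.50 in control at day 7, and 7.23 with citalopram and 7.33 in control at day 3. Parp9 had 8.48 with citalopram and 8.39 in control at day 7, and 8.26 with citalopram and 8.30 in control at day 3. Parp14 differed with citalopram by 0.27 at day 7 and -0.10 at day 3, and Parp9 by 0.10 at day 7 and -0.04 at day 3. Only the day 7 difference of Parp14 exceeded the moderated SD of a difference.

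Among the other induced genes, Rtp4, which encodes a receptor transporter that dampens interferon responses in mice, had 7.68 with citalopram and 8.41 in control at day 7, and 7.65 with citalopram and 7.89 in control at day 3. The day 7 control was the high array, with citalopram lower by 0.73 at day 7 (1.66-fold) and by 0.23 at day 3. Limma's estimate for Rtp4 was -0.48 (SE 0.13), the lowest unadjusted p of the 27 (0.00668), with an adjusted p of 0.389 on the deposited values and 0.0453 after quantile normalization. Lgals3bp, a secreted galectin-binding glycoprotein gene, had 10.33 with citalopram and 10.96 in control at day 7, and 11.10 with citalopram and 10.91 in control at day 3. Only its day 7 citalopram array was low, 0.63 below control (1.55-fold). Tor3a, a torsin ATPase gene, had 9.91 with citalopram and 10.24 in control at day 7, and 10.02 with citalopram and 10.00 in control at day 3. Ifi27, whose locus overlaps that of Ifi27l2a in the gene table, had 9.72 with citalopram and 9.83 in control at day 7, and 9.44 with citalopram and 9.39 in control at day 3.

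Between the days, most of these genes were higher at day 7 on the deposited values. With citalopram 16 of 27 were higher at day 7 than at day 3, beside 44.5% of 12366 genes, with a median difference of 0.11 against -0.03 for all genes. That count was 11 after quantile normalization (36.4% of all genes), 14 after cyclic loess (45.9%) and 12 with array medians equalised (21.6%). In control cells 21 of the 27 were higher, beside 47.7% of 12370 genes, with a median of 0.21 against -0.01 for all genes. The control count was 19, 20 and 17 under the same scalings, beside 40.9%, 45.9% and 27.7% of all genes. The day differences share their arrays with the citalopram differences above, so these values are not separate evidence. The 2 day medians of all genes depended on scaling: with array medians equalised they were -0.19 with citalopram and -0.12 in control. Relative to all genes the interferon median was then 0.15 with citalopram and 0.22 in control, and on the deposited values 0.15 and 0.22. With citalopram the median itself turned to -0.04 under that scaling and to -0.05 under quantile normalization, where it lay 0.04 above all genes.

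Ifi35, whose protein has a leucine zipper and pairs with NMI, was the one gene of the 27 that passed the test for day on the deposited values, and it rose. It had 9.22 with citalopram and 9.11 in control at day 7, and 8.51 with citalopram and 8.62 in control at day 3, so both day 7 arrays lay above both day 3 arrays. Limma's day estimate was 0.60 (SE 0.11, adjusted p 0.0296). Over 9 alternative settings the adjusted p ranged from 0.00157 to 0.0677, and it missed the threshold only when day was fitted without treatment. Limma called 1 of 27 genes higher at day 7, beside 1.5% of 12586 tested genes, and 0 lower, beside 1.68%. The count of higher genes was 5 after quantile normalization, beside 477 of all 12584 tested genes, and 6 after cyclic loess, beside 471 of 12586. It was 3 with array medians equalised, beside 230 of 12586, and 4 with the 60th percentile floor, beside 293 of 8430. Irf9, Irf1, Tap1, Xaf1 or Ifi27 were among those added, and Irf9 was not tested at that higher floor. At an unadjusted p under 0.05 there were 9 higher genes, beside 8.49%, and 0 lower, beside 11.9%.

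In control cells Irf9 and Xaf1 were at least 1.5-fold higher at day 7, beside 1.23% of all genes, and 0 of 27 were at least 1.5-fold lower, beside 1.12%. Irf9 differed by 0.35 with citalopram and by 0.71 in control (1.63-fold), with an adjusted p of 0.0531 for day. Xaf1, which encodes an antagonist of the apoptosis inhibitor XIAP, had 8.39 with citalopram and 8.58 in control at day 7, and 8.16 with citalopram and 7.89 in control at day 3. Its day difference was 0.23 with citalopram and 0.69 in control (adjusted p 0.0958). Rtp4 differed between days by 0.03 with citalopram (below 0 under the 3 other scalings) and 0.53 in control. Stat2 differed by 0.18 with citalopram and 0.44 in control, and Irf1 by 0.37 with citalopram and 0.45 in control.

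With citalopram, Tap1 and Ifi35 were at least 1.5-fold higher at day 7 than at day 3, beside 2.09% of all genes, and Lgals3bp was at least 1.5-fold lower, beside 2.77%. Tap1 differed by 0.87 with citalopram (1.83-fold) and by 0.24 in control (adjusted p 0.0841 for day). Lgals3bp differed by -0.76 with citalopram and 0.05 in control, and the control value was -0.06 with array medians equalised. In 18 of the 27 genes the day difference was smaller with citalopram than in control, beside 54.7% of all genes counted at both days. By array, 6 of the 27 had their highest level in the day 7 citalopram array, 11 in the day 7 control, 7 in the day 3 citalopram array and 3 in the day 3 control. Over all genes above the floor these shares were 28.7%, 18.1%, 30.8% and 22.4%.

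**Figure D3:**
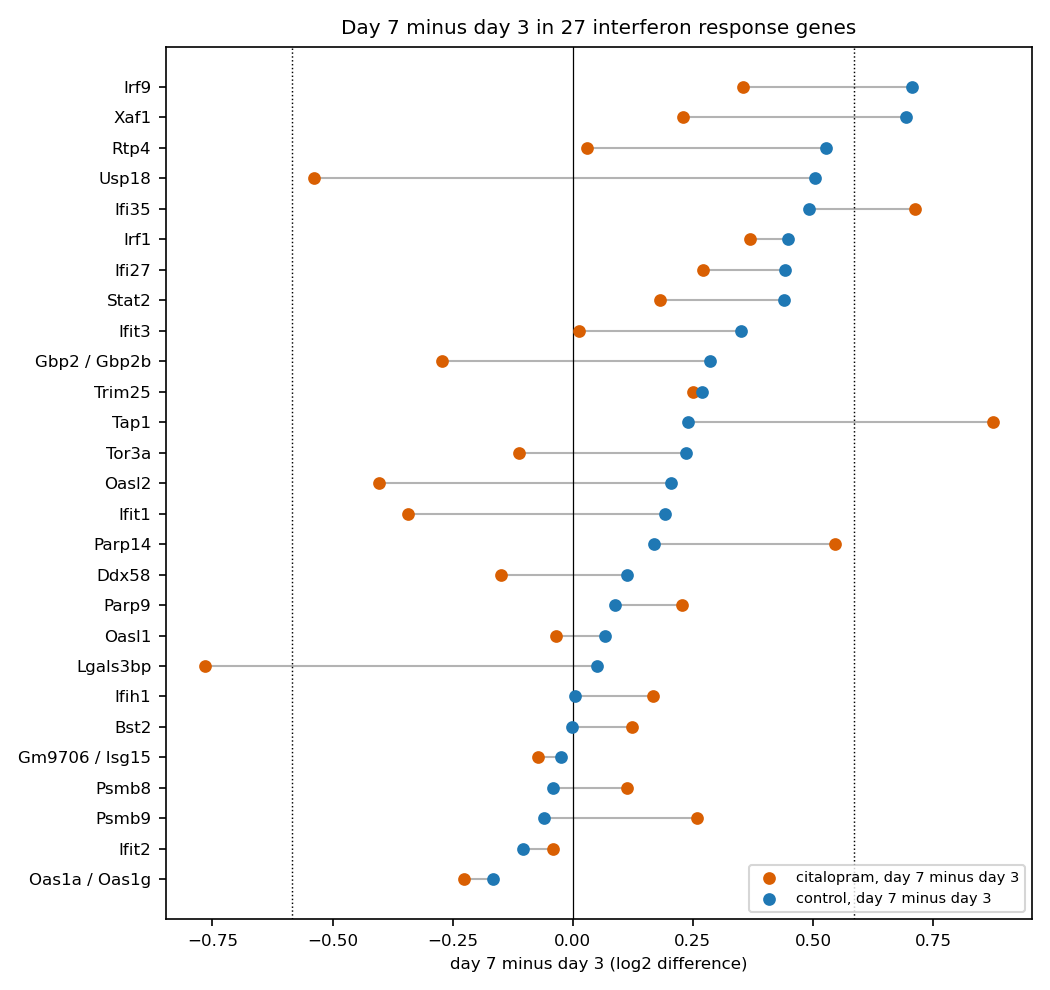
Log2 difference of day 7 minus day 3 for 27 interferon response genes (rows, ordered by the control value), with citalopram in orange and control in blue and a grey line joining them; dotted lines mark 1.5-fold. Irf9 and Xaf1 in control, and Tap1 and Ifi35 with citalopram, lie past 1.5-fold higher, and Lgals3bp with citalopram lies past 1.5-fold lower.

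**Figure D4:**
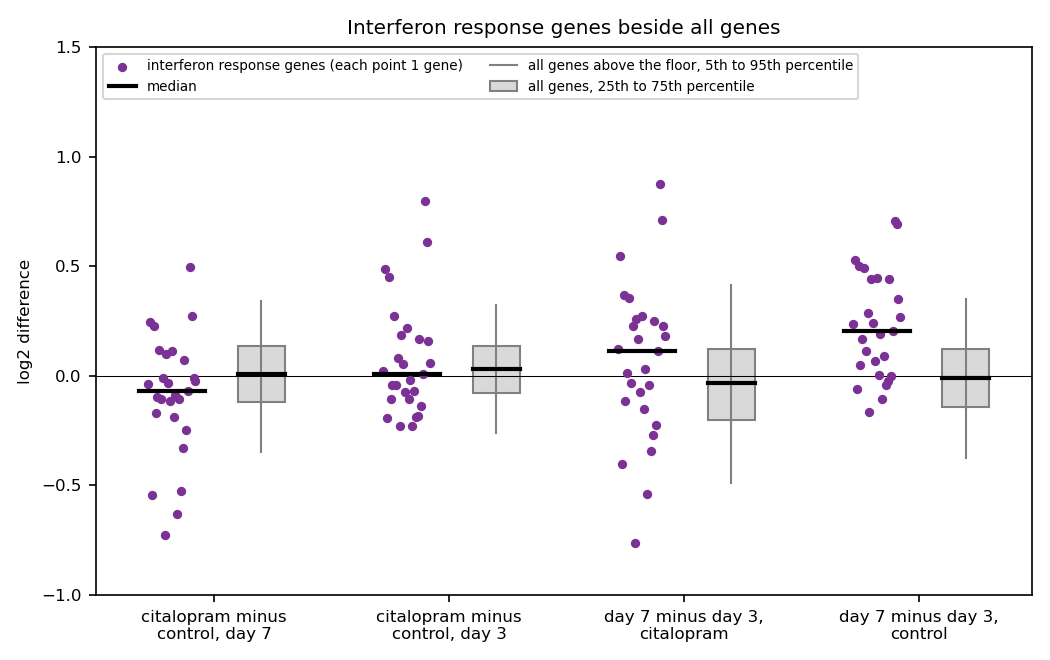
Log2 differences (vertical axis) of the 27 counted interferon response genes (purple points) beside all counted genes (grey box, 25th to 75th percentile; line, 5th to 95th) in each of 4 comparisons, with black bars for medians. The interferon median of 0.21 for day 7 minus day 3 in control stands 0.22 above that of all genes; the citalopram medians are -0.07 at day 7 and 0.0064 at day 3, and that at day 3 is below 0 under 3 other scalings, as is the day median with citalopram under 2.

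Genes of the signalling parts upstream were also read. Receptor genes for type I interferon were bright, with Ifnar1 at 10.32 with citalopram and 10.22 in control at day 7, and at 10.25 with citalopram and 10.09 in control at day 3. Ifnar2 ranged from 11.20 to 11.29. The interferon gamma receptor gene Ifngr1 ranged from 10.91 to 11.10, and Ifngr2 had 11.66 with citalopram and 11.93 in control at day 7, and 11.71 with citalopram and 11.68 in control at day 3. The kinase genes Jak1 (11.24 to 11.47) and Tyk2 (8.22 to 8.30) were also above the floor. Ifnb1, the gene of interferon beta, lay below the floor (5.55 to 5.78). Of 9 interferon ligand genes, 4 reached the floor on any array and 3 on every array, with values up to 8.42. The brightest of them spanned only 0.0068 over the 4 arrays, and the feature of another is annotated to 10 genes. Whether such values come from ligand transcripts or from the probes was not tested.

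A list of 100 other genes of the pathway (ligands, receptors, sensors, regulators, induced antiviral genes and class I presentation), of which 97 had a feature and 78 reached the floor, was read in the same way. None of them differed 1.5-fold between citalopram and control at either day. Over all counted genes that share was also small, at 0.551% higher and 0.916% lower at day 7, and 0.485% and 0.243% at day 3. At day 7, 45 of 78 counted were higher with citalopram (median 0.05), beside 51.4% of all counted genes, and at day 3, 50 of 75 were higher (median 0.04), beside 57.7%. For citalopram limma called 0 of these pathway genes, while 3 reached an unadjusted p below 0.05, and these 3 were higher, beside 5.45% of all tested genes higher and 3.6% lower. For day it called 1 of 78 higher, beside 1.5%, and 1 lower, beside 1.68%. Rnf213, a large ubiquitin ligase gene, rose at day 7, at 10.31 with citalopram and 10.22 in control at day 7, and 9.45 with citalopram and 9.25 in control at day 3 (estimate 0.92, limma's adjusted p 0.00389). Cgas (listed as Mb21d1), which encodes the sensor of cytosolic DNA, fell, at 6.70 with citalopram and 6.82 in control at day 7, and 7.21 with citalopram and 7.32 in control at day 3 (estimate -0.50, limma's adjusted p 0.043).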

How the data were processed

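The authors deposited 1 log2 expression value per feature and array, for 35556 features. The log base is inferred from the values (3.90 to 15.5) and is not stated in the sources used here. Partek is named without a version, per the submitters' processing notes; no source used here states the background correction or normalization. The number of arrays limits the precision. Medians over all features were 6.66 with citalopram and 6.60 in control at day 7, and 6.50 on both day 3 arrays, so the distributions had not been made equal.

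Features were named through the platform annotation: 21797 carried 1 symbol, 1613 several and 12146 none. A feature shared by several genes was kept once, which left 20216 features. The features of Isg15, Oas1a and Gbp2 were shared with another gene and are named with both.

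Differences between single arrays were counted at 1.5-fold, above a floor at the 40th percentile. Effects over 4 arrays came from limma 3.58.1 in R 4.3.3 (additive terms for treatment and day, two-sided, Benjamini-Hochberg adjustment over 12586 features above the floor on any array), tested on simulated data. The labels name no separate experiments, so the spread between arrays may be technical. Tables were made with Python 3.11.15.

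The 36 genes, the pathway lists and the tests were chosen with earlier results of these data known. Of 108 pathway names, 8 repeated a gene or a feature. Genes received full values if they were 1.5-fold apart in any of the 4 differences, called by limma, or the brightest of their role group; the other genes of the 36 that have full values were chosen after their values were seen, to complete a family. Pathway genes were named by a fixed list of receptors, kinases and Ifnb1, a 1.5-fold citalopram difference or a limma call. Alternatives were 3 scalings, other feature choices, other floors, an intensity trend, 1 factor alone and 2-fold. A member of the pathway lists and a promoter motif are not reported here.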

Additional observations from a re-analysis of the deposited data

Results flagged for a closer look

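In 4 genes citalopram differed from control in opposite directions at the 2 days, by at least 1.5-fold between the days. The share of all genes with such a change was not computed. The day 3 differences of Oasl2 (0.08) and Tap1 (-0.14) were smaller than the moderated SD of a difference (0.151), so their signs are not secure. With 1 array per group these differences were not tested. The citalopram difference at day 7 minus that at day 3 was -1.04 for Usp18, -0.82 for Lgals3bp, -0.61 for Oasl2 and 0.63 for Tap1.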

How the results depend on the processing

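The labels give no replicate numbers, so no block for them was fitted; the additive fit itself compares citalopram with control within each day and the days within each treatment. The median citalopram difference at day 3, 0.0064 on the deposited values, was -0.0043 after quantile normalization, -0.016 after cyclic loess, -0.0014 with array medians equalised, -0.0058 with the mean of a gene's features, -0.0059 with features of 1 gene only and -0.034 without a floor. The median day difference with citalopram, 0.11, was -0.050 after quantile normalization and -0.042 with array medians equalised. The medians of citalopram at day 7 and of day in control kept their sign under these 3 scalings, both other feature choices and both other floors. Genes called lower for citalopram were 0, and 1 (Rtp4) after quantile normalization. Genes called higher for day were 1, and 5 after quantile normalization, 6 after cyclic loess, 3 with medians equalised, 2 with the mean of features, 4 with the 60th percentile floor and 0 with day alone; 1 (Lgals3bp) was called lower with medians equalised. Over all genes, the calls for citalopram (0 higher and 0 lower) were 52 and 79 after quantile normalization, 21 and 21 after cyclic loess, 17 and 22 with medians equalised and 5 and 1 with the 60th percentile floor. Those for day (189 and 212) were 477 and 1098 after quantile normalization, 471 and 615 after cyclic loess and 230 and 1876 with medians equalised. They were 274 and 319 with the mean of features, 293 and 426 with the 60th percentile floor and 53 and 31 with day alone. Ifi35 was called in 8 of 9 alternatives. Of the 1.5-fold counts, the 2 higher genes at day 3 became 0 with the 60th percentile floor, the 2 lower genes at day 7 became 4 after quantile normalization and 3 with medians equalised, the 2 higher with citalopram between days became 1 with medians equalised, the 1 lower became 2 with medians equalised or quantile normalization, and the 2 higher in control became 1 with the 60th percentile floor. Over all genes, the count lower at day 7 with citalopram rose too, from 342 of 12366 to 883 of 12255 with medians equalised. It was 512 of 12321 after quantile normalization. The count higher with citalopram went from 259 to 121 with medians equalised. With the 60th percentile floor, 113 of 8260 were higher in control and 36 of 8227 at day 3. At 2-fold each of these counts of interferon response genes was 0. The counts over all genes at 2-fold ranged from 4 (lower at day 7) to 61 (higher between days with citalopram). The cause of these changes was not tested. Dim signal limits 8 genes, and 1 array per group limits every difference.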
